A study of Homo sapiens with 8 samples.

Results

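Expression of 10 immediate early genes and their corepressors was followed in a human leukemia line treated with an inhibitor of the immunoproteasome. The genes were EGR1, EGR2 and EGR3, the EGR corepressors NAB1 and NAB2, the FOS family genes FOS, FOSB and FOSL2, and the JUN family genes JUN and JUNB. They were taken by their symbols, in a choice made with earlier results of these data known. Each had a row among the 38551 genes of the count table. The line, MOLM-13, was derived from acute myeloid leukemia and carries a rearranged KMT2A gene. Polyadenylated RNA was sequenced from 4 libraries of cells that had received the diluent DMSO and from 4 libraries of cells that had received 100 nM PR-957, with 72 h of treatment in both. ONX-0914 is another name of PR-957, which blocks the catalytic immunoproteasome subunit PSMB8. Both groups were bulk cultures of this single line, and no other dose or time was analysed here. Nothing in the labels says that the 4 libraries of a group came from separate cultures, so the p-values measure the spread between these libraries, which may be technical. In bulk RNA, fewer cells that express a gene and less RNA per cell cannot be told apart.

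Immediate early genes are transcribed soon after a growth factor, cytokine or stress signal, without prior synthesis of new protein. Much of this signal runs through RAS and the MAP kinases to serum response factor and its ELK partners, which bind a short element called the CArG box. EGR proteins are zinc finger transcription factors that share a GC-rich binding site, and NAB proteins bind EGR1 and EGR2 and repress their targets. FOS proteins pair with JUN proteins to form the AP-1 transcription factor. In myeloid cells, EGR and AP-1 factors take part in differentiation towards monocytes and macrophages.

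Promoters of some members are shown, with the letters of known control elements that fell in the window searched. RefSeq promoters on GRCh38.p14 were found for 9 of the 10 members, with 13 start sites in all, and EGR3 had no entry. Each runs 5′ to 3′ on the strand of the gene over the 250 bases before the start. Capitals mark the letters of a CArG box (CCWWWWWWGG, where W is A or T), of an EGR site (GCGNGGGCG) or of a TATA box (TATAAA). EGR1 lies on the plus strand and its bases are chr5:138465229-138465478. EGR2 lies on the minus strand, and the start shown is an internal one within the span of the gene, with bases chr10:62816367-62816616. NAB2 lies on the plus strand, with bases chr12:57088864-57089113. FOS lies on the plus strand, with bases chr14:75278578-75278827.
EGR1: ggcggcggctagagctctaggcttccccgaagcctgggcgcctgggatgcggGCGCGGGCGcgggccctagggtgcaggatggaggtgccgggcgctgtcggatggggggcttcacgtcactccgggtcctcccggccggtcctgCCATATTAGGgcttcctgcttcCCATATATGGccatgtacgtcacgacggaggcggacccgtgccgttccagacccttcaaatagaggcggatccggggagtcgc
EGR2: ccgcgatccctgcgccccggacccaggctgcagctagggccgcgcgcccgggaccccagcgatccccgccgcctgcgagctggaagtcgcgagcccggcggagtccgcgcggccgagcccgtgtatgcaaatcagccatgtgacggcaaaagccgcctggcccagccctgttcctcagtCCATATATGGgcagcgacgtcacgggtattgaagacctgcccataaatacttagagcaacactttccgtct
NAB2: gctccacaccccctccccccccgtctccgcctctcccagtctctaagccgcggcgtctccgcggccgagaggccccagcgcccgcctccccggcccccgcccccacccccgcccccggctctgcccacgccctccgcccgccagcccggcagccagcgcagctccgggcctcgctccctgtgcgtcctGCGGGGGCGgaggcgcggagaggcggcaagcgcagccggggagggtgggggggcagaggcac
FOS: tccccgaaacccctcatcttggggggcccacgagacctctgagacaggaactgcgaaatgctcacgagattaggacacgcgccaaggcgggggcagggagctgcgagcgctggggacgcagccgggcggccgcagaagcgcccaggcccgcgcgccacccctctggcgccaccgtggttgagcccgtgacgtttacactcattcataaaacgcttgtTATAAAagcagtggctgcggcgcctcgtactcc

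The EGR1 promoter held 2 CArG boxes, at -105 to -96 and -83 to -74 from the start, and EGR letters at -198 to -190. The EGR2 promoter held a CArG box at -71 to -62. NAB2, itself a known target of EGR factors, held EGR letters at -62 to -54. NAB1 held them too, at -42 to -34, -36 to -28 (overlapping) and 14 to 22 from a start. A second NAB1 start has a window that overlaps the first. The same bases were matched there again, at -230 to -222, -224 to -216 and -175 to -167. Only the match at 9 to 17 from the second start was new. Another EGR2 start held EGR letters at 9 to 17. FOS held TATA letters at -33 to -28, JUNB at -31 to -26 and FOSB at -30 to -25. No match overlapped a match of another motif. Both strands were searched from 250 bases before to 50 after each start. Of 35116 promoters of this length, 1.29% held a CArG box, 9.43% the EGR letters and 11.5% the TATA letters. The letters TGACGTCA (the CRE of CREB factors, in 1.85% of promoters) were found in no member, and TGANTCA (the AP-1 site, in 7.71%) in FOSL2 alone, at 5 to 11 after a start. No match says only that these exact letters were not in the window searched, and variants of them were not searched.

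Total counts ran from 16675036 to 23111223 per library, and the deepest library was DMSO replicate 4. Counts were brought to a common scale with TMM factors (edgeR), which correct for differences in composition, and are given as CPM. Genes that mark myeloid leukemia cells (FLT3, HOXA9, MEIS1, CD33, SPI1, PTPRC and MPO) had at least 10 counts in every library in 7 of 7 cases, with summed CPM of 954 to 1020 in the DMSO libraries and 1030 to 1120 in the PR-957 libraries. Within that sum 4 fell (FLT3, HOXA9, MEIS1 and PTPRC) and 2 rose (MPO and SPI1), with FLT3 going from 340 to 173 CPM and MPO from 175 to 506 CPM. T cell markers summed to at most 0.655 CPM and erythroid markers to at most 0.619 CPM. B cell markers summed to 16.9 to 20.2 CPM in DMSO libraries and 13.9 to 18.4 CPM under PR-957. Epithelial and stromal markers summed to 45.9 to 54.3 CPM and 30.9 to 41.4 CPM. The part of these markers in the results was not tested.

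DMSO replicate 4 stood apart for these genes and is set out before the comparisons. It held the highest CPM of the DMSO group for 9 of the 10 members, whereas 29.5% of all tested genes were highest in that library. The members lay a median of 0.70 above the mean of the other 3 DMSO libraries on the log2 scale, beside a median of -0.02 over all tested genes. The excess was 4.71-fold for EGR2, 3.12-fold for EGR3, 2.01-fold for FOSB, 1.91-fold for EGR1, 1.66-fold for FOS, 1.59-fold for JUN and 1.47-fold for NAB2. JUNB (1.15-fold), FOSL2 (1.07-fold) and NAB1 (1.01-fold) were closer to the other libraries. PR-957 replicate 4 was also high for several members, with a median of 0.47 on the log2 scale. It lay 3.09-fold above the other PR-957 libraries for EGR1, a larger excess than 99.9% of tested genes had in that library. Results are therefore given with and without DMSO replicate 4.

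**Figure D1:**
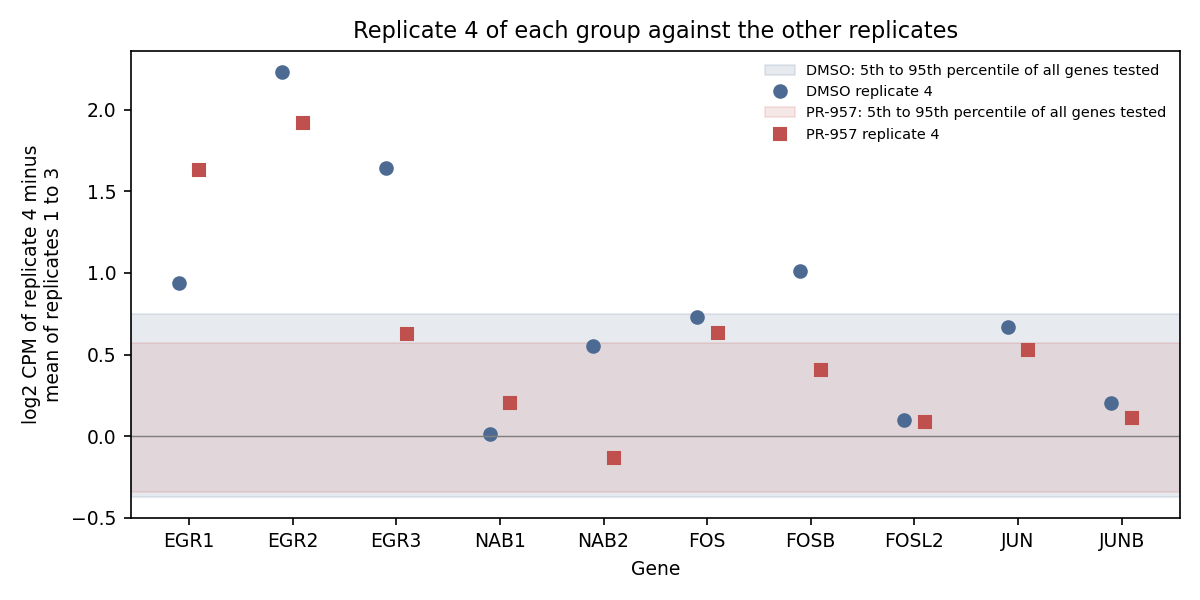
Each point is the log2 CPM of replicate 4 minus the mean log2 CPM of replicates 1 to 3 of the same group (y axis), for each gene on the x axis. Blue circles are DMSO and red squares PR-957, and the shaded bands span the 5th to the 95th percentile of all tested genes. EGR1, EGR2, EGR3 and FOSB lie above the band in DMSO, where EGR2 is 4.71-fold above the other libraries.

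Under PR-957, 5 of the 10 members fell and none rose by edgeR's quasi-likelihood test (two-sided, adjusted p under 0.05, Benjamini-Hochberg over 13179 genes). EGR2, EGR3, NAB2, FOSL2 and JUNB were lower. At this threshold 23.5% of all tested genes were lower and 23.1% were higher. The 5 of 10 lower and 0 of 10 higher stand beside those shares. They are a description, since the members were chosen with earlier results known. At an unadjusted p under 0.05 the count of higher members was also 0. DESeq2 called 0 members higher and limma-voom called 1, JUN. Groups did not overlap for 4 members, EGR2, EGR3, NAB2 and FOSL2, all lower in PR-957. Over all tested genes, 21.7% were lower and 20.8% higher with no overlap. Without DMSO replicate 4, the same 5 members were lower, where 23.7% of 13331 tested genes were lower, and FOS was higher, where 23.4% were higher. The median log2 fold change of the members was -0.41 with all libraries and -0.24 without DMSO replicate 4, beside 0.003 over all tested genes. Scaling by library totals alone gave 4066 higher and 2353 lower genes in all, in place of 3045 and 3098, and the members called stayed at 5 lower and 0 higher.

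**Figure D2:**
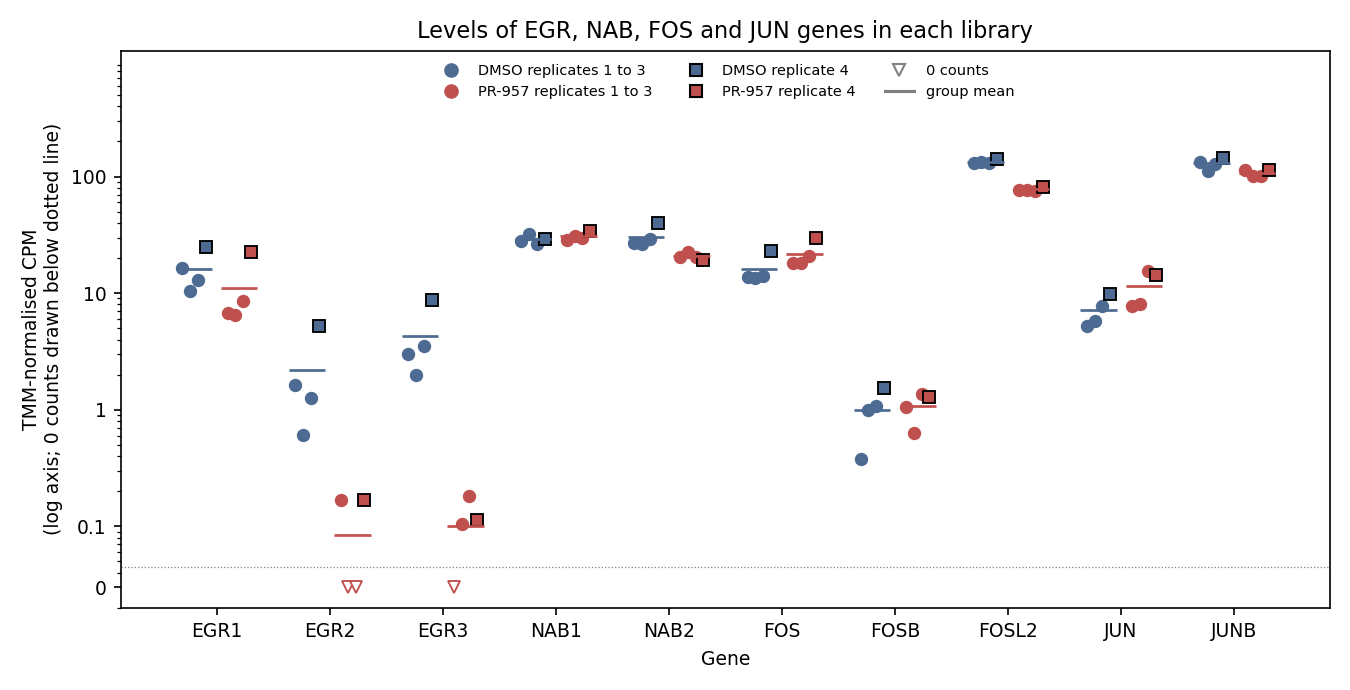
CPM of the 10 genes (log y axis) in each library, with DMSO in blue and PR-957 in red. Squares with a black edge are replicate 4, horizontal lines are group means (n = 4), and open triangles below the dotted line are libraries with 0 counts. EGR2 and EGR3 drop from means of 2.18 and 4.30 CPM to 0.0840 and 0.0999 CPM, and the FOSL2 groups are well apart at 129.6 to 140.4 against 75.9 to 81.1 CPM.

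EGR3 and EGR2 showed the largest differences of the set. EGR3 counts were 48, 36, 58 and 199 in DMSO replicates 1 to 4 and 0, 2, 4 and 2 in PR-957 replicates 1 to 4. Every PR-957 library lay far below every DMSO library, and 3 of them held at most 2 counts. EGR3 averaged 4.30 ± 2.99 CPM with DMSO and 0.0999 ± 0.0753 CPM with PR-957 (SD, n = 4 each). The log2 fold change was -5.31 ± 0.71 (SE) with an edgeR adjusted p of 0.000212, and -4.68 with an adjusted p of 2.29e-08 without DMSO replicate 4. Because counts were low, the ratio of summed counts was also taken, with an interval that leaves out the spread between libraries. DMSO exceeded PR-957 by 44.6-fold (95% exact counting interval 22.4 to 104), from 341 against 8 counts, and by 27.0-fold (13.3 to 63.7) without DMSO replicate 4.

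EGR2 counts were 26, 11, 21 and 119 in DMSO and 3, 0, 0 and 3 in PR-957. The groups did not overlap, and 2 PR-957 libraries held no read, which allows up to 0.157 CPM in replicate 2 and 0.137 CPM in replicate 3 (3 counts). EGR2 averaged 2.18 ± 2.06 CPM with DMSO and 0.0840 ± 0.0970 CPM with PR-957. Its log2 fold change was -4.73 ± 1.07, with an edgeR adjusted p of 0.00765. Leaving out DMSO replicate 4 gave -3.77 and 5.7e-05, and the fitted fold moved from 26.5 to 13.7. Summed counts were 177 against 6, a ratio of 30.9 (13.9 to 85.3), or 14.7 (6.36 to 41.7) without that library. With replicates 3 and 4 alone the log2 fold change was -5.35 with an adjusted p of 0.0539. Over 17 alternatives the adjusted p ran from 1.61e-08 to 0.0539 and EGR2 was called lower in 16.

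EGR1, which encodes the family's best known member and had the highest level per exon length of the EGR genes, did not pass the test. Its counts were 260, 186, 214 and 568 in DMSO and 121, 125, 189 and 399 in PR-957. In each group replicate 4 was the highest, and the value of PR-957 replicate 4 (22.4 CPM) lay above DMSO replicates 1 to 3 (10.4 to 16.3 CPM), so the groups overlapped. Mean levels were 16.1 ± 6.30 CPM and 11.1 ± 7.63 CPM, a log2 fold change of -0.56 ± 0.51 with an edgeR adjusted p of 0.414. Its log2 fold change was -0.26 (adjusted p = 0.730) without DMSO replicate 4. Without PR-957 replicate 4 it was -1.15 (adjusted p = 0.0396), and with replicates 1 and 2 alone it was -0.996 (adjusted p = 5.83e-06). With replicates 3 and 4 alone it was -0.32 (edgeR adjusted p = 0.804). No label gives a reason for this split of the libraries. Over 18 alternatives EGR1 was lower in all, was called in 3, and had adjusted p values from 5.83e-06 to 0.804.

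Of the corepressors, NAB2 passed the test and NAB1 did not. NAB2 counts were 428, 471, 480 and 917 in DMSO and 368, 436, 445 and 343 in PR-957. On the CPM scale every PR-957 library lay below every DMSO library, at 19.3 to 22.8 against 26.2 to 40.1. NAB2 fell from 30.5 ± 6.47 to 20.7 ± 1.46 CPM (log2 fold change -0.57 ± 0.12, edgeR adjusted p = 0.00167). The fall was smaller without DMSO replicate 4, at -0.40 (adjusted p = 0.000304), and the gene was called lower in 18 of 18 alternatives. NAB2 shares 69 exon bases (2.77% of its own) with STAT6 on the opposite strand, so reads in that stretch are assigned by strand alone.

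NAB1 counts were 446, 575, 441 and 665 in DMSO and 515, 587, 648 and 606 in PR-957. The groups overlapped, with 28.9 ± 2.30 CPM and 30.7 ± 2.36 CPM. The log2 fold change was 0.09 ± 0.08 (edgeR adjusted p = 0.372), 0.09 without DMSO replicate 4, and no alternative called it.

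Among the FOS genes, FOSL2, which encodes the AP-1 subunit FRA-2, had the closest replicates. Its counts were 2087, 2374, 2147 and 3214 in DMSO and 1383, 1467, 1663 and 1442 in PR-957. DMSO libraries held 129.6 to 140.4 CPM and PR-957 libraries 75.9 to 81.1 CPM, with a wide gap between them. The coefficient of variation among DMSO libraries was 3.67%, beside a median of 8.83% over all tested genes. FOSL2 fell by 0.78 ± 0.05 on the log2 scale (edgeR adjusted p = 8.9e-10), and its log2 fold change without DMSO replicate 4 was -0.76 (adjusted p = 1.1e-10). It was called lower in 18 of 18 alternatives, with a log2 fold change between -0.80 and -0.70.

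FOS counts were 220, 244, 232 and 523 in DMSO and 328, 348, 455 and 525 in PR-957. DMSO replicates 1 to 3 lay between 13.6 and 14.0 CPM, below every PR-957 library (18.2 to 29.5 CPM), whereas DMSO replicate 4 held 22.8 CPM. With that library in the fit, FOS did not pass the test, at 16.1 ± 4.53 CPM against 21.7 ± 5.36 CPM, a log2 fold change of 0.42 ± 0.24 and an edgeR adjusted p of 0.189. Without it, FOS was higher in PR-957 by 0.65 on the log2 scale (adjusted p = 0.00549). PR-957 replicate 4 was also high for FOS, at 1.55-fold above the other PR-957 libraries. Leaving out PR-957 replicate 4 instead gave a log2 fold change of 0.23 (edgeR adjusted p = 0.368). Replicates 1 and 2 alone gave 0.41 (adjusted p = 0.0041), and replicates 3 and 4 alone gave 0.42 (adjusted p = 0.425). Over 18 alternatives FOS was above DMSO in all and called in 3, with adjusted p values from 6.52e-05 to 0.425.

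FOSB had the lowest level per exon length of the FOS genes. Its counts were 6, 18, 18 and 35 in DMSO and 19, 12, 30 and 23 in PR-957, and the groups overlapped widely. The ratio of summed counts, DMSO over PR-957, was 0.959 (95% exact counting interval 0.695 to 1.32), and 0.761 (0.512 to 1.11) without DMSO replicate 4. The log2 fold change was 0.09 ± 0.35 (edgeR adjusted p = 0.855) and 0.39 (adjusted p = 0.415) without DMSO replicate 4.

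The JUN genes lay on opposite sides of 0. JUNB counts were 2122, 2021, 2142 and 3289 in DMSO and 2051, 1952, 2219 and 2029 in PR-957. DMSO libraries held 112.5 to 143.7 CPM and PR-957 libraries 101.3 to 114.3 CPM, so that the lowest DMSO library lay within the PR-957 range. JUNB fell from 129.6 ± 12.9 to 107.9 ± 7.26 CPM (log2 fold change -0.27 ± 0.07, edgeR adjusted p = 0.00403). Without DMSO replicate 4 the log2 fold change was -0.21 (adjusted p = 0.00867), and JUNB was called lower in 18 of 18 alternatives, with a highest adjusted p of 0.0483.

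JUN, the founding AP-1 subunit, had counts of 83, 104, 129 and 225 in DMSO and 139, 156, 339 and 254 in PR-957. Replicates 3 and 4 were the higher libraries in both groups, and PR-957 replicates 1 and 2 (7.74 and 8.14 CPM) lay among the DMSO values of 5.20 to 9.83 CPM. DMSO libraries averaged 7.15 ± 2.10 CPM and PR-957 libraries 11.4 ± 4.04 CPM. JUN did not pass the test, with a log2 fold change of 0.66 ± 0.30 and an edgeR adjusted p of 0.112, or 0.87 and 0.0539 without DMSO replicate 4. Replicates 1 and 2 alone gave 0.53 (adjusted p = 0.0146) and replicates 3 and 4 alone gave 0.74 (adjusted p = 0.00164). JUN was above DMSO in all 18 alternatives and called in 4, with adjusted p values from 4.6e-05 to 0.233.

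**Figure D3:**
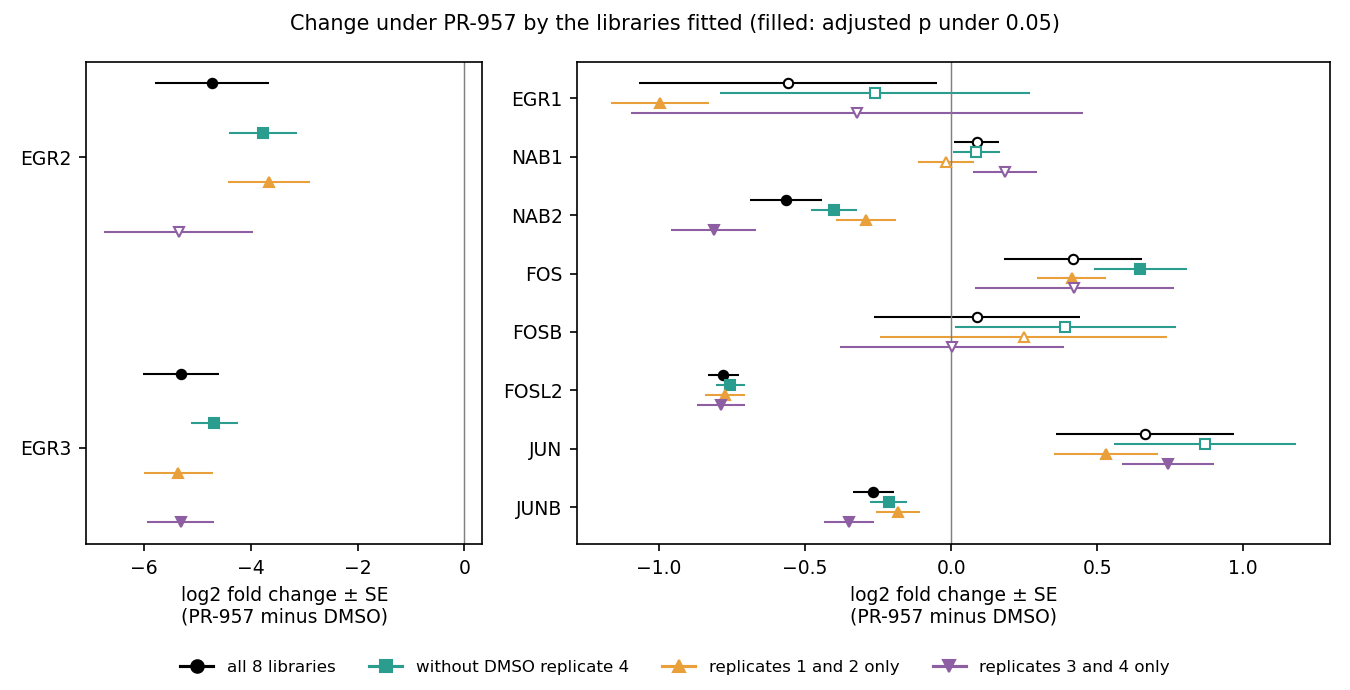
Log2 fold change of PR-957 against DMSO with its SE (x axis) for each gene (y axis), fitted on all 8 libraries (black circles), without DMSO replicate 4 (green squares), on replicates 1 and 2 only (orange) and on replicates 3 and 4 only (purple). Filled symbols have an edgeR adjusted p under 0.05. EGR3, NAB2, FOSL2 and JUNB are filled in all 4 fits, whereas FOS and JUN are filled in 2 each.

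Per exon length, JUNB was the most abundant member in DMSO at 70.8 RPKM (CPM divided by the exon length in kilobases). FOSL2 (15.2 RPKM) and NAB2 (12.3 RPKM) followed with overlapping ranges, then FOS (7.63 RPKM), whose range overlapped that of NAB2. NAB1 (5.74 RPKM) and EGR1 (5.13 RPKM) overlapped each other, and JUN (2.20 RPKM), EGR3 (0.822 RPKM), EGR2 (0.690 RPKM) and FOSB (0.265 RPKM) formed the lower end, each overlapping the next. Ranges of neighbours did not overlap between JUNB and FOSL2, between FOS and NAB1, and between EGR1 and JUN. In PR-957 the FOS range (8.63 to 14.0 RPKM) overlapped those of FOSL2 (8.64 to 9.23 RPKM) and NAB2 (7.74 to 9.14 RPKM).

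Ratios between genes of 1 family were taken within each library, where depth and scaling cancel. The 5 ratios were chosen after the values were seen. EGR3 held 18.5 to 35.0% of the EGR1 counts in DMSO and 0 to 2.12% in PR-957, and EGR2 held 5.91 to 21.0% and 0 to 2.48%. NAB2 counts were 81.9 to 138% of NAB1 counts in DMSO and 56.6 to 74.3% in PR-957. FOSL2 counts were 615 to 973% of FOS counts in DMSO and 275 to 422% in PR-957. The groups did not overlap in these 4 ratios, and DMSO replicate 4 had the highest EGR3, EGR2 and NAB2 ratios and the lowest FOSL2 ratio of its group. The mean log2 ratio, PR-957 minus DMSO and with 0.5 counts added to each gene, differed by -4.53 for EGR3 to EGR1 and by -3.90 for EGR2 to EGR1. For NAB2 to NAB1 the difference was -0.63 and for FOSL2 to FOS it was -1.22. Since the pairs were picked with their values known, these differences are a description with no test. JUNB counts were 1460 to 2560% of JUN counts in DMSO and 655 to 1480% in PR-957, with an overlap and a log2 difference of -0.91.

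**Figure D4:**
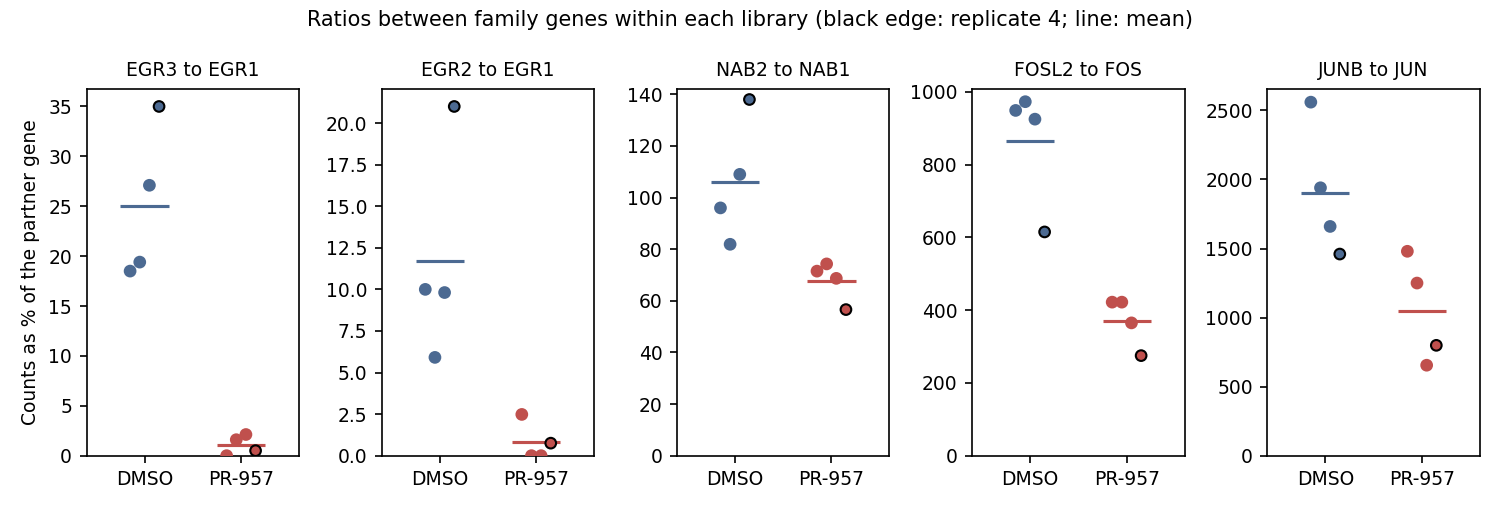
Counts of a gene as a percent of the counts of a partner of its family (y axis, from 0) in each library of DMSO (blue) and PR-957 (red). Points with a black edge are replicate 4 and lines are group means (n = 4). EGR3 to EGR1 is 18.5 to 35.0% in DMSO and at most 2.12% in PR-957, and only the JUNB to JUN groups overlap.

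Within groups, members tended to be high or low in the same libraries. After each group mean was subtracted, Pearson's r over the 8 libraries was 0.93 for FOS with FOSL2, 0.92 for EGR2 with JUNB and 0.92 for EGR1 with FOS, and 42 of 45 pairs were above 0. The lowest was -0.26, for NAB1 with JUNB. Values for EGR2 take in PR-957 counts of 3, 0, 0 and 3, where a few reads move the log2 scale widely. EGR2 with EGR3 gave -0.09. These values rest on 8 libraries that share replicate 4 as a high point and are given as a description. The share of pairs above 0 among all tested genes was not taken. As measured, with the group difference kept, FOS and FOSL2 gave -0.51 and EGR2 and JUNB gave 0.96.

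The 3 remaining genes of these families were read beside the members. JUND, the JUN gene with the broadest basal expression, fell from 5711 to 9402 counts in DMSO to 3956 to 5559 in PR-957 (log2 fold change -0.63, edgeR adjusted p = 3.25e-06). For FOSL1, which encodes FRA-1, the log2 fold change was 0.03 (adjusted p = 0.833). EGR4 held 1 to 4 counts in DMSO and 0 to 4 in PR-957 and was not tested.

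Of 25 other immediate early genes, 21 were tested, of which 12 were lower (57.1%, beside 23.5% of all tested genes) and 1 was higher (4.76%, beside 23.1%), with a median log2 fold change of -0.43. Without DMSO replicate 4, 12 were lower and 2 higher, with a median of -0.32. The largest decrease was in ZFP36L1, an RNA-binding protein that promotes decay of AU-rich transcripts, from 130 to 471 counts in DMSO to 52 to 65 in PR-957 (log2 fold change -1.92, edgeR adjusted p = 0.00333, and -1.46 without DMSO replicate 4). The single increase was KLF4, a zinc finger factor of monocyte differentiation, at 0.36 (adjusted p = 0.00343). ATF3, a stress-induced partner of AP-1, and the matricellular gene CCN2 were also lower, at -1.74 and -1.59, and were named after their values were seen. Without DMSO replicate 4 these were -1.67 and -1.61, so that ZFP36L1 was then no longer the gene with the largest decrease. IER3 is placed on several contigs in the gene models, so its 0 counts do not give its level.

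Among 12 genes whose proteins pair with or compete with FOS and JUN, 9 were tested, of which 6 were lower (66.7%, beside 23.5% of all tested genes) and 1 was higher (11.1%, beside 23.1%), with a median log2 fold change of -0.22. ATF3, which stands in both lists, showed the largest decrease among them. BATF, which pairs with JUN proteins in place of FOS, rose from 86 to 211 counts in DMSO to 252 to 415 in PR-957 (log2 fold change 1.03, edgeR adjusted p = 9.21e-05). With DMSO replicate 4 left out, 4 were lower and 1 higher. MAFF, a small MAF factor named after its values were seen, was lower by a log2 fold change of -1.58.

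Kinases and factors upstream of these genes were read in the same way. Of 21 RAS and MAP kinase pathway genes, 19 were tested, with 6 lower (31.6%) and 4 higher (21.1%), near the shares of all tested genes (23.5% and 23.1%), and a median of -0.08. RPS6KA2, a ribosomal S6 kinase below ERK, fell from 100 to 166 counts in DMSO to 4 to 23 in PR-957 (log2 fold change -3.26, edgeR adjusted p = 3.35e-07). MAPK14, the p38 alpha kinase, rose by 0.46 on the log2 scale (adjusted p = 1.07e-05). HRAS and RPS6KA1 are placed on more than 1 contig, and their counts near 0 do not give their levels. Of 9 upstream transcription factors, 9 were tested, with 2 lower (22.2%) and 1 higher (11.1%), beside 23.5% and 23.1% of all tested genes, and a median of -0.03. ELK3, an ELK partner of serum response factor, was higher at 0.34 (adjusted p = 0.0374) and ELK4 was lower at -0.22 (adjusted p = 0.0233). SRF, which encodes serum response factor itself, gave -0.07 (adjusted p = 0.315). Leaving out DMSO replicate 4, 0 of the 9 were lower and 1 was higher.

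**Figure D5:**
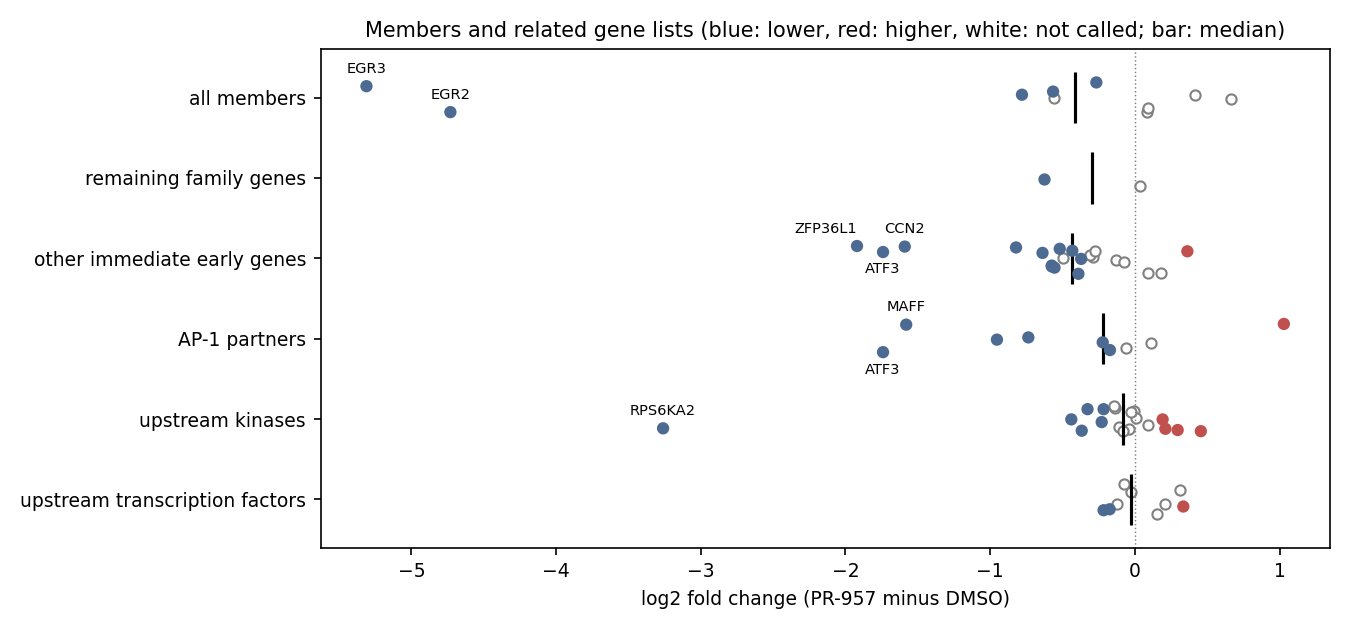
Log2 fold change of PR-957 against DMSO (x axis) for each tested gene of the lists on the y axis, where each point is a gene and vertical spread within a list is only for legibility. Blue points are lower and red points higher at an edgeR adjusted p under 0.05, white points were not called, black bars are list medians, and the dotted line is the median of all tested genes. EGR3 and EGR2 lie furthest to the left, followed by RPS6KA2 at -3.26, and the members' median is -0.41.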

How the data were processed

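Sample titles gave the groups and replicate numbers. The authors trimmed reads (Trimmomatic 0.39), aligned them to hg38 (STAR 2.7.10a) and counted fragments per gene with featureCounts 2.0.1, per the file headers on the reverse strand with both ends mapped. The deposited values were raw counts, not normalized. Of 16 libraries named in the counting command the table held 8, 6 gene rows held no values and were dropped, and a deposited table of the authors' own comparison (mean count, log2 fold change, standard error and p-values) was not used. The sources used here do not give whether the library kit kept strand.

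Members and lists were chosen with earlier results of these data known. Counts were tested with edgeR 4.0.16 in R 4.3.3 (robust glmQLFit, glmQLFTest, two-sided, TMM, no covariate). The filter filterByExpr, with a minimum count of 10, kept 13179 genes with 99.9% of counts, all 10 members among them. EGR2, EGR3 and FOSB had under 20 counts in some library and were treated as low. Named genes were the members, the remaining family genes and the largest called increase and decrease of each list, and any other was chosen after its values were seen. For likeness to EGR1 and JUN, the 3 genes with the highest Pearson r were taken. Alternatives were DESeq2 1.42.0, limma-voom (limma 3.58.1), other scalings and filters, the replicate number as a block, each library left out in turn, and replicates 1 and 2 or 3 and 4 alone. Leaving libraries out of the family ratios was added after the data were seen. The fit was checked on simulated data. Counting intervals, and the limits set by a count of 0, take in counting error alone. They leave out the spread between libraries, and they treat PCR copies of a fragment as separate molecules, which they are not.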

Additional observations from a re-analysis of the deposited data

Results flagged for a closer look

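In each group of 4 libraries the gap between the extreme library and its nearest neighbour was set against the range of the group, for 10 genes and both treatments. Of these 20 tests 2 passed the 95% limit, and chance passes about 1 in 20. EGR1 in PR-957 replicate 4 was 22.4 CPM, with a gap of 0.868 of the range above the other PR-957 libraries. FOS in DMSO replicate 4 was 22.8 CPM, with a gap of 0.955 of the range above the other DMSO libraries. Leaving out the first library brought EGR1 past the threshold and leaving out the second brought FOS past it.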

How the results depend on the processing

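Members called lower (5) stayed between 4 and 6 under every other test, scaling, filter and choice of libraries. They were 3 (EGR2, EGR3 and FOSL2) when at least a 1.5-fold change was also required, beside 922 of 13179 tested genes. Members called higher (0) were 1 with limma-voom (JUN), 2 with replicates 1 and 2 only (FOS and JUN) and 1 with replicates 3 and 4 only (JUN). They were 0 to 1 when a library was left out, where the 1 was FOS without DMSO replicate 4. Of all tested genes, 20.2% were lower and 20.2% higher with replicates 1 and 2 only. With replicates 3 and 4 only these shares were 17.3% and 17.3%. Among the members' refitted fold changes, 164 kept their direction and side of the threshold, 10 passed it newly (EGR1, FOS and JUN), 1 no longer passed (EGR2 with replicates 3 and 4 only) and 4 turned in sign. NAB1 turned with replicates 1 and 2 only (-0.017). FOSB, whose values ran from -0.16 to 0.39 when a library was left out, turned below 0 without DMSO replicate 1, PR-957 replicate 3 or PR-957 replicate 4. Neither gene was called in any fit. The cause was not tested. EGR2 was not tested under a filter of 1 CPM in 4 libraries. The 5 family ratios kept their direction when any library was left out. Same-numbered libraries deviated from their group means together at r of 0.135, 0.200, 0.0886 and 0.189 for replicates 1 to 4. Each library correlated best with its own number, which is a hint from the data and not from the design. A fit with the replicate block called 6 members lower, with EGR1 added, and 2 higher, FOS and JUN. The shares of all tested genes called in that fit were not taken, so these member counts have no background beside them. Depth limits EGR2, EGR3 and FOSB.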

Other observations

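Of 11263 other genes with an average of at least 1 on the log2 CPM scale, those most like EGR1 over the 8 libraries were PARP16 (Pearson's r 0.95), KCNQ1 (0.94) and ARL15 (0.94). With group means subtracted they were CGRRF1 (0.96), TSR2 (0.95) and ARL15 (0.95). For JUN they were SCARB2 (0.98), KCND1 (0.98) and RCBTB2 (0.97), and with group means subtracted EMP2 (0.98), SIGLEC12 (0.98) and GTPBP2 (0.98). These are the highest of many correlations over 8 libraries and are given as a description.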
